A study of Mus musculus with 8 samples.

Results

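The Rab GTPases are the largest family of small GTPases and direct membrane traffic. Each Rab cycles between a GTP-bound form, which recruits effectors such as tethers and motors to a membrane, and a GDP-bound form. Exchange factors load GTP, GTPase-activating proteins end the signal, and GDP dissociation inhibitors and Rab escort proteins carry the prenylated Rab through the cytosol. In kidney tubule epithelium these proteins sort receptors through endosomes, deliver transporters to the apical and basolateral surfaces and help to build the primary cilium. smgGDS, the product of Rap1gds1, is an armadillo-repeat protein that binds other small GTPases, whereas prenylation of most Rab proteins goes through the escort proteins. The members described here are the genes whose symbol is Rab followed by a number and at most a letter and a digit. The deposited table held 59 such genes among 21879, and 46 of them passed the low-count filter that left 11576 genes in all.

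The RNA, enriched for poly(A), came from TCMK-1, a transformed line of mouse kidney tubule epithelium. Of the 8 libraries, 4 came from cells with an shRNA against smgGDS and 20 µM cisplatin (knockdown) and 4 from cells with a control shRNA and 20 µM cisplatin (control). Both groups therefore carried the platinum drug, and the comparison concerns the knockdown within treated cells. The sources used here name neither the vector nor the exposure time, and do not say whether replicates were grown as separate cultures or came from 1 clone. The p-values therefore reflect only how far these 8 samples scatter, and that scatter may be technical.

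Total expected counts lay between 12746051 and 14280962 in knockdown libraries and between 11560977 and 16059158 in control libraries. In the knockdown, Rap1gds1 was reduced to 16.2% of control (95% interval 13.6% to 19.5%), so the libraries matched their labels. Knockdown replicate 4 stood apart on the principal component that carried 34.7% of the variance, with a score of -16.5, where knockdown replicates 1 to 3 scored -7.74 to -7.25 and the controls 6.9 to 13.8. Of 6 epithelial markers 4 were abundant enough to test. Krt19 averaged 9.93 CPM in the knockdown and 10.1 CPM in the control, Krt8, Krt18 and Epcam lay between 1.02 and 2.75 CPM, and Cdh1 and Cldn7 had at most 5 and 10 counts. Of 9 tubule markers 3 were tested, Aqp1 (127 and 155 CPM), Pax8 (9.33 and 8.97 CPM) and Lrp2 (1.12 and 0.87 CPM), while Hnf4a and Umod were at 0 in every library.

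Markers of other cell types moved with the groups. The 5 fibroblast markers summed to 366 to 421 CPM (read count scaled to library size with TMM factors) in the knockdown and 308 to 334 CPM in the control, and 4 of the 5, all those tested, were higher. The 5 leukocyte markers summed to 111 to 122 CPM and 129 to 138 CPM, and nearly all of this was Cd14 and Cd68, with Adgre1 and Cd3e at 0 counts. The 5 endothelial markers, of which 1 was abundant enough to test, summed to 11.9 to 13.7 CPM in the knockdown and 7.54 to 9.58 CPM in the control, nearly all of it Flt1. The 9 tubule markers summed to 134 to 141 CPM in the knockdown and 159 to 172 CPM in the control. Aqp1 carried that sum and its difference (log2 fold change -0.29), and Pax8 (0.05) and Lrp2 (0.39) were not called. These are genes named for other cell types, measured here in the same cell line, TCMK-1, in every library. The part of these shifts in the Rab values was not tested. In bulk RNA, fewer cells that express a gene and less RNA per cell cannot be told apart.

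Of the 46 Rab genes tested, 4 rose in the knockdown (Rab5c, Rab10, Rab15 and Rab28) and 4 fell (Rab1a, Rab5b, Rab23 and Rab40c). A gene was called when its adjusted p was below 0.05 (edgeR quasi-likelihood test, two-sided, Benjamini-Hochberg over all 11576 genes). By that rule 20.2% of all genes were called, 11.1% upward and 9.15% downward, and the 17.4% of Rab genes called lies near this background. At an unadjusted p under 0.05 there were 11 Rab genes (23.9%, against 32% of all genes), the other 3 being Rab4b, Rab31 and Rab35. Of the exonic bases of Rab4b, 65% are shared with Gm21983 on the same strand. Fold changes are expressed as log2 of knockdown over control, and their median was 0.02 over the 46 Rab genes and 0.00 over all genes. The fold changes of the 8 called genes lay between -0.35 and 0.53 on the log2 scale. Groups of 4 libraries did not overlap for 6 of the 46 (13%), all of them among the 8 called, against 21.1% of all genes tested.

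With library totals alone as the scaling, 3 Rab genes rose and 6 fell, and the median of all genes was then -0.06. On FPKM the split was again 3 and 6. Among all genes, 766 rose and 1951 fell under library-total scaling, and 592 rose and 1481 fell on FPKM. Without knockdown replicate 4, 4 rose and 3 fell, without control replicate 1, 2 rose and 4 fell, and without control replicate 3, 3 rose and 2 fell. With those libraries left out, 15.7%, 16% and 17.7% of all genes were called, in the same order.

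**Figure D1:**
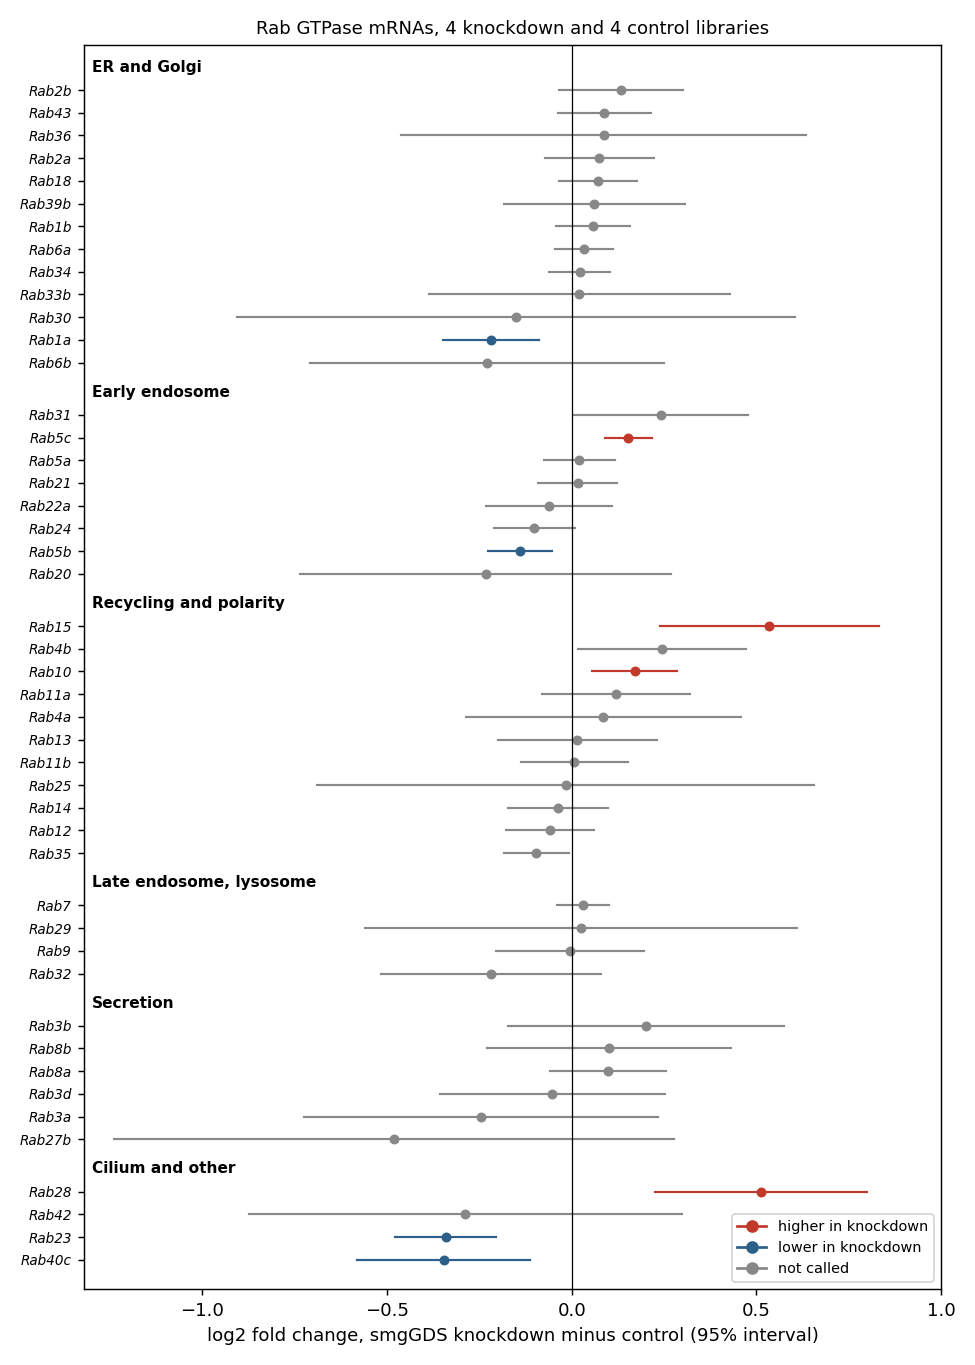
Log2 fold change (knockdown minus control) with its 95% interval for each of the 46 tested Rab genes, grouped by the step of membrane traffic they serve. The 4 genes called higher are red, the 4 called lower are blue and the other 38 are grey, most of them close to 0.

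The level of the messages spanned 3 orders of size. The authors' FPKM, which divides by transcript length and so allows comparison between genes, was at least 10 for 19 of the 46 genes, between 1 and 10 for 22 and under 1 for 5. Rab5c, of the early endosome, was the most abundant at 146 ± 2.03 FPKM in the knockdown and 136 ± 3.29 FPKM in the control (SD, n = 4 each). It was followed by Rab34, which acts at the Golgi and in ciliogenesis, at 84.5 ± 1.76 and 86.9 ± 4.59 FPKM, and by Rab7, of late endosomes, at 76.4 ± 0.841 and 77.8 ± 0.694 FPKM. The levels of Rab34 and Rab7 in the control differ by more than their spread. Below them came Rab1b (43.7 ± 2.91 and 43.7 ± 1.70 FPKM) and Rab35 (41.2 ± 0.95 and 45.7 ± 2.15 FPKM). Within either group, Rab1b and Rab35 did not differ from each other beyond their spread.

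The 46 genes together summed to 783 ± 6.49 FPKM in the knockdown and 801 ± 2.79 FPKM in the control (SD, n = 4 each). On the TMM scale the means lay the other way, 1778 ± 16.3 CPM in the knockdown and 1756 ± 22.7 CPM in the control. These CPM sums overlapped (1764 to 1798 CPM in the knockdown, 1728 to 1774 CPM in the control), whereas the FPKM sums did not. On the log2(FPKM + 0.5) scale the median of all genes was -0.05. Rab5c alone supplied 18.6% of the summed Rab FPKM in the knockdown and 17% in the control.

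**Figure D2:**
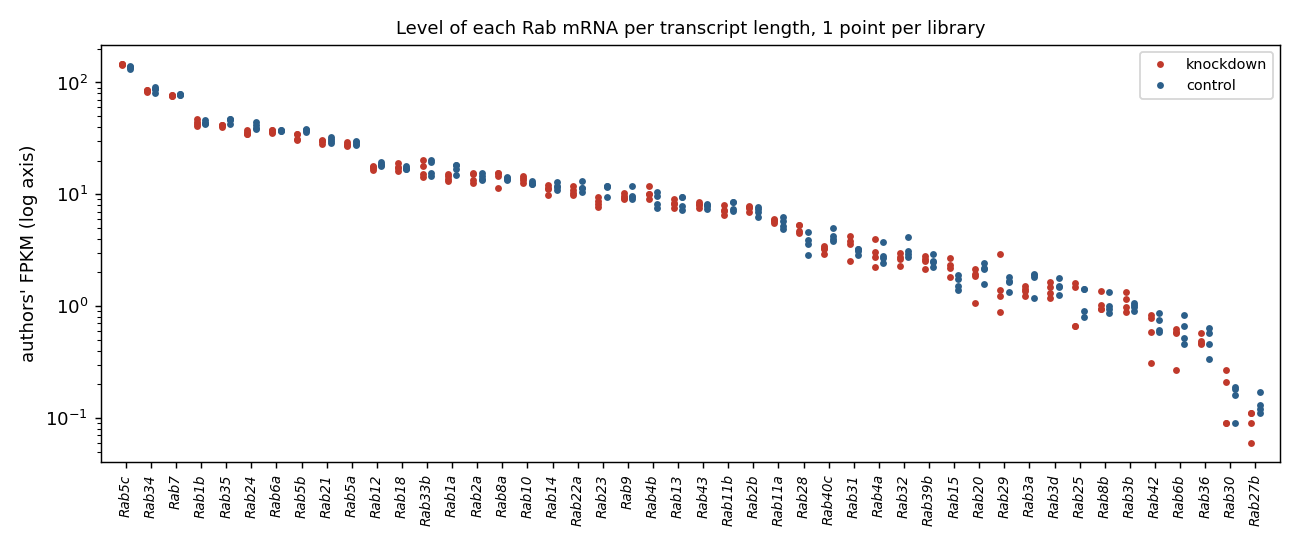
The authors' FPKM (log axis) of each tested Rab gene, 1 point per library, knockdown in red and control in blue, ordered by mean level. Rab5c, Rab34 and Rab7 lead, and Rab27b, at 0.0925 FPKM in the knockdown and 0.133 FPKM in the control, is last.

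Among the early endosome Rabs, the paralogs Rab5c and Rab5b moved in opposite directions while Rab5a kept its level within the error. Rab5 proteins drive fusion of endocytic vesicles and early endosomes through effectors such as EEA1. Rab5c (ncbi_19345, GRCm38.p6 chromosome 11, 100715003 to 100738215) had 286, 278, 290 and 289 CPM in knockdown replicates 1 to 4, against 260, 245, 260 and 264 CPM in the control. Every knockdown library lay above every control library, and the log2 fold change was 0.15 (SE 0.03, edgeR adjusted p = 0.000369). It was 0.10 under library-total scaling (adjusted p = 0.0175) and 0.10 on FPKM (adjusted p = 0.0319).

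Rab5b (ncbi_19344, chromosome 10, 128677170 to 128696284) had 101, 114, 113 and 105 CPM in the knockdown and 115, 118, 123 and 120 CPM in the control. The groups did not overlap, but the highest knockdown library was within 2 CPM of the lowest control. Its log2 fold change was -0.14 (SE 0.04, edgeR adjusted p = 0.0152), and the call was lost without knockdown replicate 1 (-0.11, adjusted p = 0.0946) or control replicate 3 (-0.12, adjusted p = 0.062). Rab5a averaged 67.8 ± 1.91 CPM in the knockdown and 66.8 ± 1.61 CPM in the control (SD, n = 4 each), with a log2 fold change of 0.02 and a 95% interval from -0.08 to 0.12.

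Within a library the ratio of paralogs does not depend on the scaling. The log2 ratio of Rab5b to Rab5c counts was -1.50, -1.29, -1.36 and -1.46 in the knockdown and -1.17, -1.05, -1.07 and -1.13 in the control. All 4 knockdown ratios were lower than all 4 control ratios, by -0.29 in the mean. The exact permutation test (two-sided) gave p = 0.0286, the smallest that 70 assignments of 8 libraries allow, and 0.251 after Benjamini-Hochberg adjustment over the 11 paralog pairs compared. With that smallest p, no pair on its own could fall under 0.05 after adjustment over 11 pairs, so the adjusted value cannot decide. In FPKM, Rab5c made up 70.5 ± 0.704% of the Rab5 sum in the knockdown and 67.3 ± 0.836% in the control, Rab5b 15.9 ± 0.949% and 18.5 ± 0.521%, and Rab5a 13.6 ± 0.455% and 14.2 ± 0.610% (SD, n = 4 each). The sum itself was 207 ± 1.70 FPKM in the knockdown and 203 ± 2.55 FPKM in the control.

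**Figure D3:**
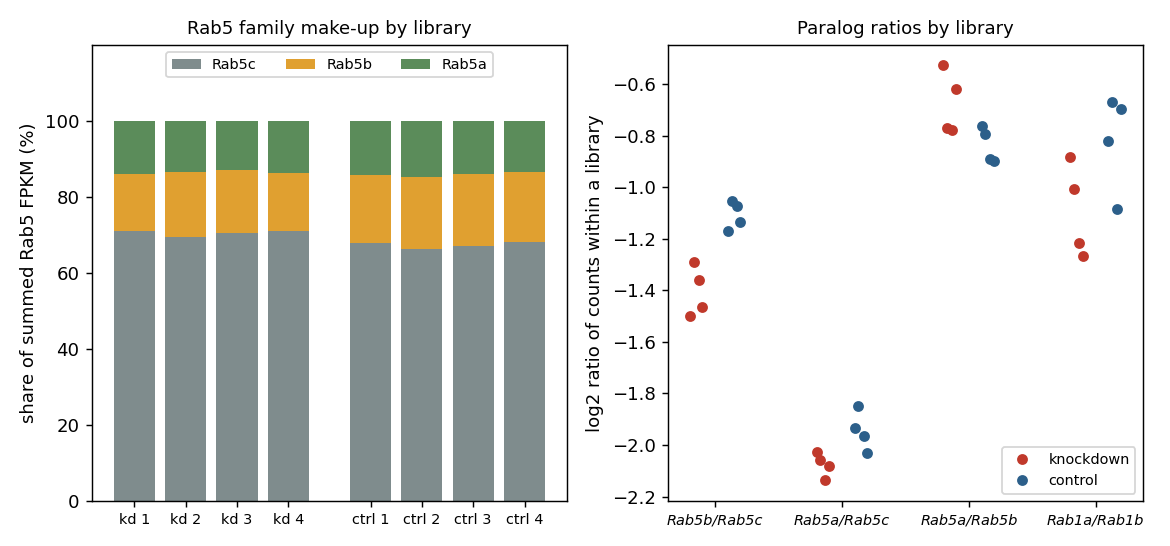
Left, the share of each Rab5 paralog in the summed Rab5 FPKM (%) of each library, and right, the log2 ratio of counts for 4 paralog pairs, 1 point per library. The Rab5c share is 69.5% to 71.1% in the knockdown and 66.2% to 68.1% in the control, and the Rab5b/Rab5c ratios of the groups do not overlap.

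The start regions of this diverging pair and of Rab23, the Rab gene with the smallest p, follow as RefSeq promoter windows of build GRCm38.p6, from 250 bases before the start to 50 after it. They were searched on both strands for CCAAT (the box bound by NF-Y), GGGCGG (the GC box), CACGTG (an E-box), TGACGTCA (a cyclic AMP response element) and TGATGNAA (an ATF4-type element). Capitals mark CCAAT, its reverse ATTGG, and CACGTG.
Rab5c, chr11:100738166-100738465, minus strand: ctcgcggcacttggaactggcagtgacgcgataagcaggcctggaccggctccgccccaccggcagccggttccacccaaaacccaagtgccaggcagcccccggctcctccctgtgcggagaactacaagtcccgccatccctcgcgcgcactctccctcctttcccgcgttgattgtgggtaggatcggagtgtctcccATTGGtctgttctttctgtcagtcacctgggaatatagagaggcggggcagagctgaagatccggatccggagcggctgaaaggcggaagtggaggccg
Rab5b, chr10:128696219-128696518, minus strand: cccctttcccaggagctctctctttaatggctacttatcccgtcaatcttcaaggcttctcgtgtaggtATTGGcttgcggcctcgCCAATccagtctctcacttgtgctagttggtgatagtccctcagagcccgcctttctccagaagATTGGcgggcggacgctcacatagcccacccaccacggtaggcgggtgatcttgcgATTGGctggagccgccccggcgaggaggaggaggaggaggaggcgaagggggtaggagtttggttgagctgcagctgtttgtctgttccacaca
Rab23, chr1:33719646-33719945, plus strand: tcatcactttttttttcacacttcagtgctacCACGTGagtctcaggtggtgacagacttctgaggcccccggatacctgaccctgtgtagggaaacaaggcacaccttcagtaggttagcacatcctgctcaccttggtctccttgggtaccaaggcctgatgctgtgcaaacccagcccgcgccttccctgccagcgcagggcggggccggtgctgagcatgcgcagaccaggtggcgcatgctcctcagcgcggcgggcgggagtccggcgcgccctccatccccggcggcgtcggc

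The Rab5b window held 4 CCAAT matches, the Rab5c window 1 and the Rab23 window none. At least 1 such match was present in 37.4% of 32851 mouse promoter windows and in 41.2% of the 51 windows of tested Rab genes, and 4 or more in 1.06% of all windows. The cut of 4 is the count of the Rab5b window itself, so that share does not test whether the window is unusual. Windows were matched for 40 of the 46 Rab genes. The GC box was in 70.6% of Rab windows against 35.7% of all windows, CACGTG in 9.80% against 7.15%, TGACGTCA in 3.92% against 1.79% and TGATGNAA in 3.92% against 3.97%. The Rab windows were those of tested genes, whereas the 32851 windows were not limited to genes that passed the filter. Motif shares among all tested genes were not computed, so these shares do not set Rab genes apart from other expressed genes. Of the windows of the 4 genes that fell, those of Rab1a and Rab23 had no CCAAT and that of Rab40c had 2, so these letters were not common to them. Of the genes that rose, the windows of Rab5c, Rab10 and Rab28 had 1 each and those of Rab15 had none.

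Of the other early endosome Rabs, none of Rab20, Rab21, Rab22a, Rab24 and Rab31 was called by edgeR, and 1 of them, Rab31, had an unadjusted p under 0.05. DESeq2 gave an adjusted p to 4 of these 5 and called none. Rab31, which acts between the trans-Golgi and endosomes, averaged 12.5 CPM in the knockdown and 10.6 CPM in the control, with knockdown replicate 3 at 8.97 CPM below every control (log2 fold change 0.24, 95% interval 0.00 to 0.48, edgeR adjusted p = 0.148). Without that library Rab31 was called higher (0.37, adjusted p = 0.0159). Rab24, linked to autophagy, averaged 53.8 CPM and 57.8 CPM (log2 fold change -0.10, edgeR adjusted p = 0.193), and was called lower under library-total scaling and on FPKM. A large share of the exonic bases of Rab24 (62.4%) lies over exons of Prelid1 on the opposite strand, and no source used here gives the strand setting of the counts.

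Among the 13 tested Rabs of the endoplasmic reticulum and Golgi, 1 was called. Rab1a, which with Rab1b carries cargo from the endoplasmic reticulum to the Golgi, fell. Rab1a (ncbi_19324, chromosome 11, 20201412 to 20226856) had 41.2, 39.3, 35.9 and 37.1 CPM in the knockdown and 44.1, 47.0, 39.4 and 48.3 CPM in the control. The groups overlapped, since control replicate 3 lay below knockdown replicate 1. The log2 fold change was -0.22 (SE 0.06, edgeR adjusted p = 0.0114), and it was not called without control replicate 4 (-0.18, adjusted p = 0.0553). In 1 library its deposited count was not whole, as happens when reads are divided between genes.

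Rab1b, the more abundant paralog, was 81.9 ± 5.82 CPM in the knockdown and 78.7 ± 3.64 CPM in the control (SD, n = 4 each, log2 fold change 0.06, 95% interval -0.04 to 0.16). The log2 ratio of Rab1a to Rab1b differed by -0.27, with overlapping groups (exact permutation test, two-sided p = 0.114, adjusted p = 0.251 over 11 pairs). Rab2a, Rab2b, Rab6a, Rab18, Rab34 and Rab43, other abundant Rabs of these membranes, had log2 fold changes between 0.02 and 0.13, and none was called by edgeR or DESeq2. Of the exonic bases of Rab43, 75.4% are shared with Gm45140 on the same strand. Rab33b, a Golgi Rab that binds an autophagy complex, varied widely inside both groups, with 63.1, 50.5, 54.6 and 72.9 CPM in the knockdown and 53.4, 48.9, 70.1 and 66.9 CPM in the control. Its counts were not whole in 6 libraries, as were those of Rab11b, and its interval was wide (log2 fold change 0.02, 95% interval -0.39 to 0.43).

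Of the 11 tested Rabs of recycling and cell polarity, 2 rose and none fell. Rab15, which slows receptor traffic through early and recycling endosomes, had 5.99, 6.91, 7.45 and 8.63 CPM in the knockdown and 4.61, 4.22, 5.86 and 5.39 CPM in the control. The groups did not overlap, although knockdown replicate 1 was within 0.2 CPM of control replicate 3. The log2 fold change of Rab15 (ncbi_104886, chromosome 12, 76797960 to 76822759) was 0.53 (SE 0.15, edgeR adjusted p = 0.00691), on 84 to 108 counts in knockdown libraries and 63 to 84 in control libraries.

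Rab10, which serves basolateral recycling and the delivery of glucose transporter vesicles, had 50.4, 52.0, 45.7 and 48.0 CPM in the knockdown and 42.8, 44.6, 42.9 and 44.1 CPM in the control. All knockdown libraries lay above all controls. The log2 fold change of Rab10 (ncbi_19325, chromosome 12, 3247428 to 3309969) was 0.17 (SE 0.06, edgeR adjusted p = 0.0269), and of the 4 rises it lost its call in the most alternatives. It was not called under library-total scaling (0.11, adjusted p = 0.155), on FPKM (0.11, adjusted p = 0.21), or without knockdown replicate 1 or 2 or control replicate 1 or 3 (0.14 to 0.16). Its counts were not whole in 2 libraries, and an antisense gene, Rab10os, overlaps 4.07% of its exonic bases.

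The main recycling Rabs, Rab11a and Rab11b, were not called. Rab11a had a log2 fold change of 0.12 (95% interval -0.08 to 0.32) and Rab11b 0.01 (-0.14 to 0.15). Rab35, which acts in fast recycling and cytokinesis, had 91.8, 92.1, 91.0 and 88.5 CPM in the knockdown and 99.5, 98.3, 99.1 and 90.9 CPM in the control. Its groups overlapped only through control replicate 4, and it missed the threshold (log2 fold change -0.10, edgeR adjusted p = 0.116), but was called lower under library-total scaling and on FPKM. Rab25, a Rab of polarised epithelia, was near the detection limit at 1.19 CPM in the knockdown and 1.18 CPM in the control, and Rab17, another such Rab, was not tested.

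None of the 4 tested late endosome and lysosome Rabs and none of the 6 tested secretory Rabs was called by edgeR, and none of the 10 had an unadjusted p under 0.05. DESeq2 gave an adjusted p to 7 of the 10 and called none. Rab7, the switch of late endosomes, had 166, 169, 169 and 170 CPM in the knockdown and 164, 162, 168 and 167 CPM in the control. The groups overlapped and the log2 fold change was 0.03 (SE 0.03, 95% interval -0.04 to 0.10). Its sign was negative under library-total scaling and on FPKM (-0.03 in both), where it was not called either. Rab8a, which serves apical exocytosis and the cilium, had 29.7, 31.9, 23.5 and 32.0 CPM in the knockdown and 26.5, 26.8, 28.0 and 28.4 CPM in the control. Knockdown replicate 3 was the lowest of all 8 libraries and the other 3 knockdown libraries were the highest (log2 fold change 0.10, SE 0.08, 95% interval -0.06 to 0.25).

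The last 4 tested genes, of the cilium and other roles, share no single step of traffic, and 1 of them rose and 2 fell. Rab23, a ciliary Rab that restrains Hedgehog signalling in mouse development, fell to 78.9% of control (95% interval 71.8% to 86.8%). It had 38.7, 41.9, 36.4 and 34.1 CPM in the knockdown and 50.1, 50.2, 49.7 and 40.7 CPM in the control. Control replicate 4 lay apart from the other controls, below knockdown replicate 2, so the groups overlapped. The log2 fold change of Rab23 (ncbi_19335, chromosome 1, 33719896 to 33742564) was -0.34 (SE 0.07, edgeR adjusted p = 0.000232).

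Rab28, found at the base of cilia and, in human cells, farnesylated rather than geranylgeranylated, rose. It had 7.21, 6.28, 7.61 and 7.91 CPM in the knockdown and 4.12, 5.55, 4.96 and 5.82 CPM in the control, and the groups did not overlap. The log2 fold change of Rab28 (ncbi_100972, chromosome 5, 41624973 to 41708193) was 0.51 (SE 0.14, edgeR adjusted p = 0.00767), and it was not called without control replicate 1 (0.42, adjusted p = 0.0528).

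Rab40c, a Rab with a SOCS box that serves as substrate receptor of a cullin-5 ubiquitin ligase, fell. It had 8.63, 8.25, 8.17 and 7.43 CPM in the knockdown and 9.60, 11.9, 10.4 and 9.33 CPM in the control, without overlap. The log2 fold change of Rab40c (ncbi_224624, chromosome 17, 25882114 to 25919714) was -0.35 (SE 0.12, edgeR adjusted p = 0.0284). That call was lost with DESeq2 (adjusted p = 0.0605), with length and GC offsets (adjusted p = 0.051), and without knockdown replicate 3 or 4 or control replicate 2 or 3 (-0.27 to -0.35).

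**Figure D4:**
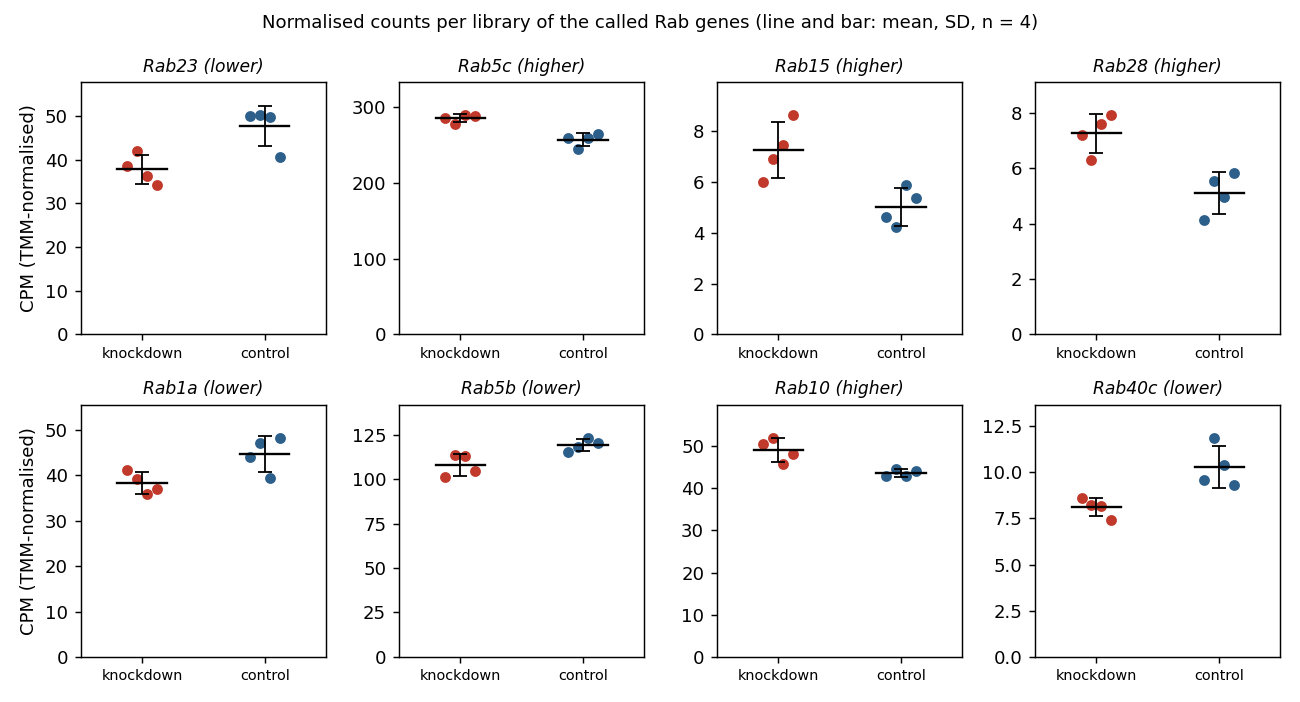
TMM-normalised CPM of the 8 called Rab genes in each library, knockdown left and control right, with the mean and SD of 4 libraries. Rab5c, Rab10, Rab15 and Rab28 lie higher in the knockdown and Rab1a, Rab5b, Rab23 and Rab40c lower, and the groups overlap for Rab1a and Rab23.

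For the 38 Rab genes not called, the intervals limit how large a change could be. The 95% interval of the log2 fold change lay inside ±0.3 for 18 of them, inside ±0.5 for 27 and inside ±1 for 37. The exception to the last, Rab27b, a Rab of granule and exosome release, had 5 to 10 counts per knockdown library and 11 to 17 per control library (log2 fold change -0.48, 95% interval -1.24 to 0.28). Rab27b passed the filter through the control libraries, so its fold change is a description only. Power rose with level in all genes. Under a mean of 5 CPM, edgeR called 0 of 12 Rab genes (0 at an unadjusted p under 0.05) against 4.92% of all genes, and DESeq2 called 0 of the 3 to which it gave an adjusted p. Between 5 and 20 CPM 3 of 11 Rab genes (27.3%) were called against 15.1% of all genes, between 20 and 50 CPM 3 of 11 (27.3%) against 23.9%, and from 50 CPM up 2 of 12 (16.7%) against 34.9%.

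The 13 Rab genes left out by the filter had at most 15 counts in any library. They were Rab3c, Rab7b, Rab9b, Rab17, Rab19, Rab26, Rab27a, Rab33a, Rab37, Rab38, Rab39, Rab40b and Rab44. Rab9b had 0 counts in all 8 libraries, which allows up to 0.181 to 0.257 CPM per library (3 counts, counting error only). Rab3c, Rab38 and Rab39 had at most 1.

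Of 47 tested exchange factors 5 rose and 2 fell, of 35 GTPase-activating proteins 2 rose and 4 fell (1 of the 4, Tbc1d2, passed the filter only through the control), and of 42 effectors 6 rose and 3 fell. These are 14.9%, 17.1% and 21.4% of the lists, beside 20.2% of all genes. Their median log2 fold changes were 0.01, 0.06 and -0.02. None of 7 escort and prenylation genes passed in edgeR or in DESeq2, and 4 had an unadjusted p under 0.05 in edgeR.

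Among exchange factors, Dennd1a, which activates Rab35, rose to 233% of control (95% interval 161% to 336%). It was low, with 2.71, 3.38, 2.32 and 2.8 CPM in the knockdown and 1.17, 1.75, 0.768 and 1.03 CPM in the control. Every knockdown library lay above every control (log2 fold change 1.22, SE 0.26, edgeR adjusted p = 0.000553).

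Rabgef1, encoding the Rab5 exchange factor Rabex-5, fell, with 16.8, 17, 16.6 and 14.9 CPM in the knockdown and 23.4, 22.6, 21.4 and 19.1 CPM in the control. The groups did not overlap (log2 fold change -0.41, SE 0.09, edgeR adjusted p = 0.000424). Rin2, another Rab5 exchange factor, averaged 3.79 ± 0.981 CPM in the knockdown and 5.38 ± 1.13 CPM in the control (SD, n = 4 each), with overlapping groups. Its log2 fold change was -0.52 (SE 0.18, adjusted p by edgeR 0.0355). The Rin2 call was lost with DESeq2, on FPKM and without any 1 of knockdown replicates 1, 3 and 4 and control replicates 1 and 2. Rab3gap2, part of an exchange factor for Rab18 and of a GTPase-activating complex for Rab3, rose by 0.23 (SE 0.06), and Dennd5a, which binds Rab6, rose by 0.17 (SE 0.05). The other risers, named after their values were seen, were Sbf1, reported in human as an exchange factor for Rab28 (0.12, SE 0.04), and Ankrd27, an exchange factor for Rab21 (0.42, SE 0.13). Rab3gap2 was not called on FPKM, and Dennd5a was not called under library-total scaling, on FPKM or without knockdown replicate 1. The groups of both genes overlapped. Of the exonic bases of Rab3gap2, 18.8% lie over exons of Iars2 on the opposite strand. Rab3gap1, also in this list and named after its values were seen, lay lower without overlap but was not called (-0.16, SE 0.06, edgeR adjusted p = 0.0798).

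Among GTPase-activating proteins, Tbc1d2, which inactivates Rab7, was at the edge of detection, with 12, 5, 7 and 11 counts in the knockdown and 25, 39, 25 and 18 in the control. It passed the filter through the control libraries, so its call (log2 fold change -1.41, edgeR adjusted p = 0.00133) is a description only. Tbc1d14, a Rab11-binding regulator of autophagy, fell (log2 fold change -0.42, SE 0.10), as did Tbc1d20, which inactivates Rab1 (-0.20, SE 0.05). Tbc1d10b, named after its values were seen and active on Rab35, also fell (-0.26, SE 0.08). Tbc1d1, which inactivates Rab10, averaged 28.0 ± 0.910 CPM in the knockdown and 21.7 ± 2.95 CPM in the control (SD, n = 4 each). Its log2 fold change was 0.37 (SE 0.08, adjusted p by edgeR 0.000701), and Tbc1d19 rose by 0.52 (SE 0.13). Tbc1d1 was not called on FPKM (adjusted p = 0.0539), and Tbc1d19 was not called without knockdown replicate 4 (0.36, adjusted p = 0.0505).

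Rbsn, encoding the Rab5 effector rabenosyn-5, had 46.6, 44.5, 47.3 and 42.7 CPM in the knockdown and 60.3, 60.6, 61.1 and 59.2 CPM in the control. No knockdown library came within 10 CPM of a control (log2 fold change -0.41, SE 0.05, edgeR adjusted p = 1.31e-07). Appl1, an adaptor of a Rab5-positive signalling endosome, had 22.6, 21.2, 20.9 and 23.5 CPM in the knockdown and 15.8, 15.7, 15 and 17.1 CPM in the control. It was higher in all 4 knockdown libraries (log2 fold change 0.48, SE 0.08, edgeR adjusted p = 3.97e-05). Eea1, the early endosome tether, rose by 0.31 (SE 0.10, named after its values were seen), with control replicate 3 inside the knockdown range. Other Rab5 effectors, also named after their values were seen, were not called: Rabep1 had a log2 fold change of 0.11, Rabep2 -0.10 and Appl2 -0.06.

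The other risers were Lrrk1, a kinase that phosphorylates Rab7 (0.41, SE 0.10), and Mical1, an actin oxidase that binds Rab1 and Rab8 (0.20, SE 0.06), and, named after their values were seen, the motor Myo5a (0.19, SE 0.06) and the Rab1-binding tether Uso1 (0.16, SE 0.06). Mical1 was not called under library-total scaling or on FPKM. Rufy2 (-0.45, SE 0.14) and the Rab11 effector Rab11fip1 (-0.25, SE 0.08) fell. Their counts were not whole in 8 and 4 libraries, and both lost their calls on FPKM and without control replicate 1. Rab11fip1 was also not called without knockdown replicate 2 or 3.

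The escort and prenylation genes handle Rab proteins in general. The GDP dissociation inhibitor Gdi2 averaged 381 CPM in the knockdown and 388 CPM in the control, with a log2 fold change of -0.03 (SE 0.03). The escort protein genes Chm and Chml had log2 fold changes of 0.39 (SE 0.17) and 0.00 (SE 0.05). The prenyltransferase subunits Rabggta and Rabggtb had 0.01 (SE 0.07) and 0.11 (SE 0.05), and the Rab acceptor Rabac1 had 0.10 (SE 0.05). Adjusted p from edgeR lay between 0.0746 for Rabggtb and 0.985 for Chml.

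**Figure D5:**
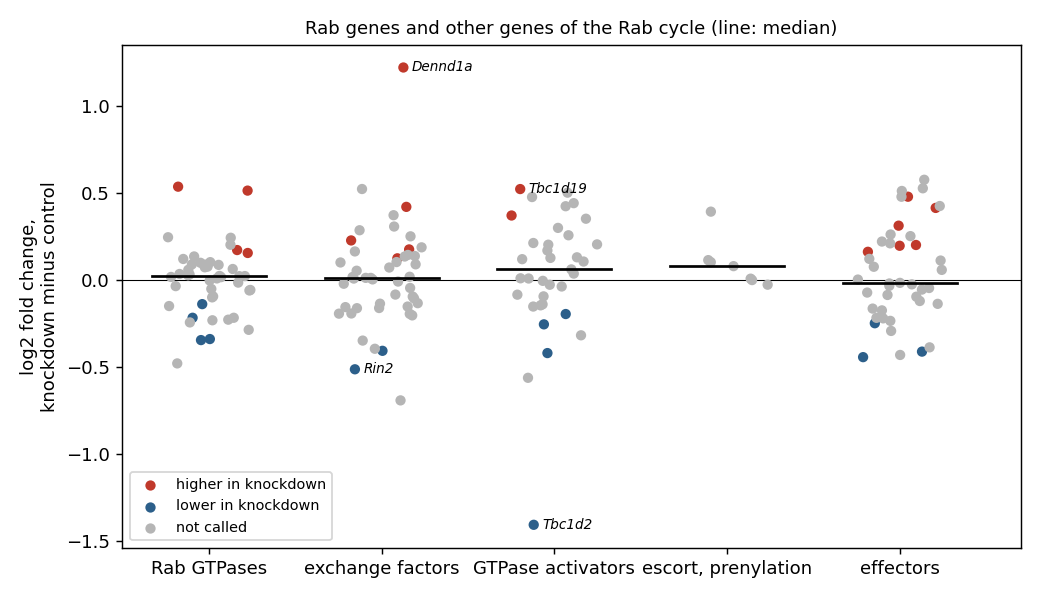
Log2 fold change (knockdown minus control) of the 46 Rab genes and of 47 exchange factors, 35 GTPase-activating proteins, 7 escort and prenylation genes and 42 effectors, 1 point per gene, with the median as a line. Called genes are coloured. Dennd1a lies at 1.22, and Tbc1d2, which passed the filter only through the control libraries, at -1.41.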

How the data were processed

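Poly(A) RNA libraries were made with the NEBNext Ultra kit, per the labels' protocols. Each gene row of the deposited table has an expected count and an FPKM from the authors for every library, per the file headers, and 6.52% of the counts were not whole (tolerance 1e-09). Per the submitters' processing notes, the authors used build GRCm38.p6, RSEM, StringTie 1.3.1, HISAT2 2.4, Bowtie2 2.2.8 and fastp 0.18.0, as well as edgeR and DESeq2, in roles that are not stated. Annotation and strandedness are not given in these sources.

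After rounding, expected counts went into edgeR 4.0.16 (R 4.3.3): default expression filter, TMM factors, robust quasi-likelihood fit on group without covariates, Benjamini-Hochberg adjustment over 11576 genes, threshold 0.05. Each SE is the fold change divided by the root of its F statistic, and intervals are 95%. The floor of 3 counts corresponds to 0.181 to 0.257 CPM per library. Paralog ratios had 0.5 counts added and were compared by exact permutation. Coordinates and promoter windows came from RefSeq tables of the same build, and exon overlaps from GENCODE M21. Replicates differed by more than sampling noise (chi-square per degree of freedom 1.94 to 3.94), so none was 1 library sequenced again. Separate libraries from 1 culture could differ in this way too. The procedure was tested on simulated data.

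The Rab members, lists, pairs and tests were chosen with earlier results of these data known. The text gives values in every library for each called Rab gene and, in role groups without a call, for the member with the highest FPKM. It names up to 3 called genes per direction in each partner list and the escort genes, of which 1 is not reported here. Other genes were named after their values were seen. Alternatives were DESeq2 1.42.0 and its size factors, library-total scaling, no low-count filter, a replicate block, limma 3.58.1 on log2(FPKM + 0.5) and each library left out. Offsets for transcript length and GC content (11178 genes with a GENCODE M21 transcript) were added after seeing the data.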

Additional observations from a re-analysis of the deposited data

Results flagged for a closer look

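In groups of 4 libraries, a value was singled out when its gap to the nearest other library, divided by the range of the group, exceeded the Dixon 95% critical value of 0.829. Of 92 groups (46 Rab genes in the knockdown and the control), 7 had such a library, and chance gives about 1 in 20.

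In the knockdown, Rab6b was low in replicate 2 (1.26 CPM, against 2.72 to 2.96 CPM in the others) and Rab7 was low in replicate 1 (166 CPM, against 169 to 170 CPM), a gap of a few CPM in a gene with little spread. In the control, replicate 4 was the library apart for Rab23 (40.7 CPM, against 49.7 to 50.2 CPM), for Rab35 (90.9 CPM, against 98.3 to 99.5 CPM) and for Rab9 (15 CPM, against 12.4 to 12.7 CPM). Control replicate 1 was low for Rab3a (1.66 CPM, against 2.58 to 2.74 CPM) and high for Rab12 (43.7 CPM, against 40.2 to 40.5 CPM). Rab23 was called lower with every library left out in turn, with log2 fold changes of -0.30 to -0.40 over all alternatives, so its call did not rest on that library.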

How the results depend on the processing

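Of the values for 34 single genes under the alternatives, 456 kept their direction and side of the threshold, 37 lost the call, 5 gained it and 10 changed sign. The sign changes were all in uncalled genes near 0: under library-total scaling and on FPKM, Rab7 was -0.026 and -0.026 and Rabggta -0.050 and -0.041. With each library left out, Rabggta ran from -0.048 (without control replicate 1) to 0.049, with -0.0095 without knockdown replicate 4 and -0.017 without control replicate 2. Chml ran from -0.024 to 0.031 (without control replicate 1), with 0.0091 and 0.014 without knockdown replicate 1 or 4. Leaving out each library gave 2 to 5 Rab genes higher and 2 to 4 lower, where 15.7% to 18.7% of all genes were called. It gave 3 to 5 exchange factors higher and 1 to 4 lower, 2 to 3 GTPase-activating proteins higher and 3 to 4 lower, 3 to 8 effectors higher and 2 to 5 lower, and 0 to 1 escort genes higher and 0 lower.

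Under library-total scaling, 3 exchange factors were higher and 8 lower, 3 effectors higher and 7 lower, and 1 escort gene lower. On FPKM, 2 exchange factors were higher and 5 lower, 1 GTPase-activating protein higher, and 2 effectors higher and 1 lower. All genes tilted the same way, with 766 higher and 1951 lower under library-total scaling and 592 and 1481 on FPKM. In the main fit these were 1285 and 1059. DESeq2 called 1 exchange factor lower, and length and GC offsets 2 escort genes higher, where 19.9% and 20.8% of all genes were called. The cause of these shifts was not tested. Correlations of same-numbered libraries lay between -0.03 and 0.12, and the best with another number between -0.02 and 0.06. The same number gave the higher value for replicates 1, 2 and 4 and the lower for replicate 3. Whether replicate numbers pair the samples was not tested. The fit with a replicate block called 4 Rab genes higher and 4 lower, with 1 escort gene higher, and 1425 higher and 1235 lower among all genes, against 1285 and 1059 without it. The differences of the 11 paralog ratios moved by less than the spread between libraries on FPKM and with 2 counts added. With 1 library left out, the Rab5b to Rab5c difference lay between -0.33 and -0.26, and 3 against 4 libraries were given no test. Under about 5 CPM, depth limits what could be called, as for Rab27b.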

Other observations

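Rab33b, at about the level of Rab21 and Rab24, had an SD of 9.91 CPM in the knockdown and 10.3 CPM in the control, around means of 60.3 and 59.8 CPM. Rab21 had means of 54.2 and 53.6 CPM, and Rab7, at 168 and 165 CPM, an SD of 1.84 and 2.95 CPM. The Rab33b counts were not whole in 6 of the 8 libraries, as happens when reads are divided between genes. The part of this in its spread was not tested.

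Rab29, a Rab of the trans-Golgi and stressed lysosomes, had 41 counts in knockdown replicate 4, the library that stood apart on the first component, and 15, 19 and 17 in knockdown replicates 1 to 3. In the control it had 31, 23, 28 and 21 counts.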
